A study of Mus musculus with 24 samples.

Results

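The 33 genes described here encode the proteins that make and dissolve blood clots, measured in the livers of normal mice and of mice with steatohepatitis, that is, with fatty and inflamed livers. They were chosen by symbol, with earlier results of these data known. All 33 matched a row of the count table, out of 78298 rows. The list holds 12 procoagulant genes, 5 genes of the contact system, 9 anticoagulant genes and 7 genes of fibrinolysis. Polyadenylated RNA from the livers of 6 control and 18 model mice was sequenced, with 1 library per mouse. The labels describe the groups only as normal control and steatohepatitis model. They give no strain, sex, age, diet, treatment or duration for either group. Nothing in them says how the mice were housed or sampled, so p-values measure the spread between these libraries. Total counts per library ran from 31600129 to 49532934 in controls and from 32201159 to 58413267 in model mice. Levels are given as CPM, a share of the library total, after TMM scaling, which sets libraries to a common level over most genes. All errors are SD over 6 control or 18 model mice unless named otherwise.

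Clotting runs through a chain of serine proteases. Tissue factor (F3) binds factor VII to start it, factors X and V then turn prothrombin (F2) into thrombin, and thrombin cuts the 3 chains of fibrinogen (Fga, Fgb and Fgg) into fibrin, which factor XIII crosslinks. Factors VIII, IX and XI amplify the chain, and the contact system of factor XII, plasma prekallikrein (Klkb1) and kininogen can start it on surfaces. Antithrombin (Serpinc1), the protein C system and tissue factor pathway inhibitor (Tfpi) restrain it, and plasmin, made from plasminogen (Plg) by the activators Plat and Plau, dissolves fibrin. Hepatocytes secrete most of these proteins into plasma. Cells other than hepatocytes, such as endothelial cells, macrophages and stromal cells, are the usual source of 9 of them: F3, F8, F13a1, Tfpi, Thbd, Procr, Plat, Plau and Plaur. That division is textbook background and was not tested in these bulk libraries, where fewer cells of a type and less RNA per cell cannot be told apart.

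The fibrinogen genes stand side by side, Fgg, Fga and Fgb at 82915031 to 82922356, 82933383 to 82940934 and 82947448 to 82957170 on chromosome 3 in GRCm39, with Fgb on the opposite strand to the other two. Their promoters are shown because the 3 genes were lower by nearly the same amount under TMM scaling, a change lost under library totals, and are textbook targets of liver factors and of interleukin-6. The 150 bases before each start come from RefSeq on GRCm38.p6, at chr3:83026003-83026152 on the plus strand, chr3:83049864-83050013 on the minus strand and chr3:83007574-83007723 on the plus strand, written 5′ to 3′ along the gene. Capitals mark 3 motifs, GTTAAT of HNF1, TTGCNNAA of C/EBP and CTGGGAA of the interleukin-6 element, on either strand.
Fga: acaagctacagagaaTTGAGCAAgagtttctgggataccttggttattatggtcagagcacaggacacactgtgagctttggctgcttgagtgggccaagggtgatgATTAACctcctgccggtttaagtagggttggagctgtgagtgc
Fgb: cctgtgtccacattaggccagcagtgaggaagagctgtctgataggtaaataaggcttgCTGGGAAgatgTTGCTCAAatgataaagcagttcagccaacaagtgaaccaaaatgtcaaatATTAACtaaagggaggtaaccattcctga
Fgg: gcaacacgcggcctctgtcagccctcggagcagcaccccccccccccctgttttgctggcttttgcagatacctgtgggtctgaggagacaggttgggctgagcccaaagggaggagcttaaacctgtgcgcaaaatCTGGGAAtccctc
The Fgb promoter held all 3 motifs, Fga held those of HNF1 and C/EBP, and Fgg held only CTGGGAA, 13 to 7 bases before its start. In Fgb the element CTGGGAA lay 91 to 85, TTGCNNAA 80 to 73 and GTTAAT 29 to 24 bases before the start, with no overlap. Promoters were listed for 26 members, and the 250 bases before the start were searched on both strands. TTGCNNAA occurred in 9 of the 26 (34.6%) against 10.8% of 27025 genes, in F9, Fga, Fgb, F11, Klkb1, Kng2, Procr, Plaur and Hrg. GTTAAT occurred in 4 (15.4%) against 7.49%, in F13b, Fga, Fgb and Proz, and CTGGGAA in 4 (15.4%) against 10.4%. AAAGTCC, a core of the HNF4 motif, occurred in 1 (3.85%) against 4.15%, and TATAAA in 2 (7.69%) against 14.3%. The match of AAAGTCC was in F13a1, and 0 of 20 hepatocyte-made members held it. These are matches of letters and not measured binding, and the shares were not tested.

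All 33 members passed the expression filter, so each was tested. F13a1, Plat, Plau, Plaur and Procr, with 0 to 18 counts per control library, passed it through the model mice, where they were higher. With no filter the members from other cells called higher were again 9. Relative to controls, 9 were higher and 19 lower in model livers, and 5 did not pass (adjusted p from edgeR's quasi-likelihood fit, threshold 0.05). Over all 17456 genes tested, 31.2% were called higher and 28.8% lower. The direction followed the usual cell of origin: all 9 members made mainly by cells other than hepatocytes were higher, and the median of their log2 fold changes was 2.94. None of the 24 hepatocyte-made members was higher and 19 were lower, with a median of -0.30, against 0.01 over all genes. By role, 3 procoagulant genes were higher and 8 lower, 0 contact genes higher and 4 lower, 3 anticoagulant genes higher and 4 lower, and 3 fibrinolysis genes higher and 3 lower. The groups did not overlap for 3 higher members, Procr, Plau and Plaur, where 9.66% of all genes were higher without overlap. They did not overlap for 9 lower members, F2, F10, F11, F12, Klkb1, Kng1, Proc, Serpinc1 and Plg, where 6.03% of all genes were lower without overlap.

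**Figure D1:**
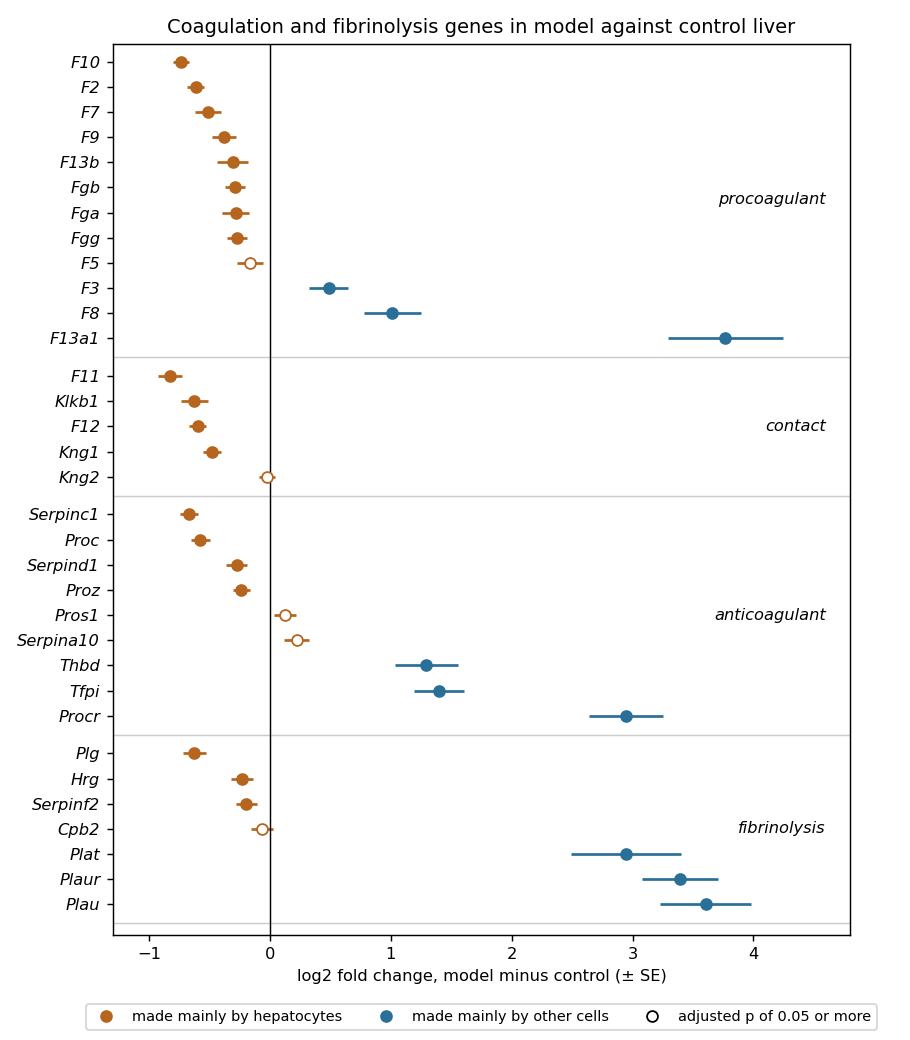
Log2 fold change of each of the 33 members, model minus control, with its standard error, grouped by role. Brown points are members made mainly by hepatocytes and blue points those made mainly by other cells. Open points did not pass the test. The 9 blue points all lie right of 0 and reach 3.77, while no filled brown point does and the lowest, F11, is at -0.83.

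The size of the lower calls depended on how libraries were scaled, since the TMM factors of controls averaged 0.843 ± 0.0285 and those of model mice 1.06 ± 0.061. With library totals alone, the median over all genes, on the log2 scale, moved from 0.01 to 0.34, 53.9% of genes were called higher and 8.95% lower. Among calls over all genes the higher share was 52.0% under TMM scaling, 62.8% under upper-quartile scaling and 85.8% under library totals. With library totals 13 members were higher and 9 lower, and the 9 lower were those whose groups did not overlap. The 9 members from other cells were called higher under each of these scalings. Clock genes also differed between the groups, with Arntl and Cry1 at -2.53 and -2.27 and Dbp and Nr1d1 at 2.68 and 2.13 on the log2 scale. An index of them, the mean log2 CPM of Arntl, Clock, Npas2, Nfil3 and Cry1 minus that of Dbp, Tef, Per1, Per2, Per3, Nr1d1, Nr1d2 and Ciart, lay between -3.51 and -2.35 in model mice and between -0.82 and 1.28 in controls 1 to 5. It was -3.21 in control 6. Among the index genes, Per1 moved against Dbp and Nr1d1, called lower at -0.84. Npas2, Tef and Ciart did not pass (0.04, 0.20 and 0.20). Control 6 was the only control within the model range, so index and group can hardly be told apart. Standard errors were wider with that index as a covariate, for F9 0.171 against 0.099 and for Plat 0.907 against 0.456. Whether the clock accounts for a call lost that way was not tested. With the covariate 8 members were higher and 11 lower, where 20.2% of all genes were higher and 16.6% lower. The median of the hepatocyte-made members was -0.30 with and without it, and that of the members from other cells went from 2.94 to 3.26. Model mouse 10 also stood apart, at 33.1 on the first principal component of the model mice, where the other 17 lay between -23.4 and 17.0. Mice 16, 2, 13, 4, 15, 18 and 17 lay toward the opposite end, from -23.4 to -10.9. Plat ran from 2.78 to 4.98 CPM in them and reached at most 2.23 CPM in the other model mice.

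**Figure D2:**
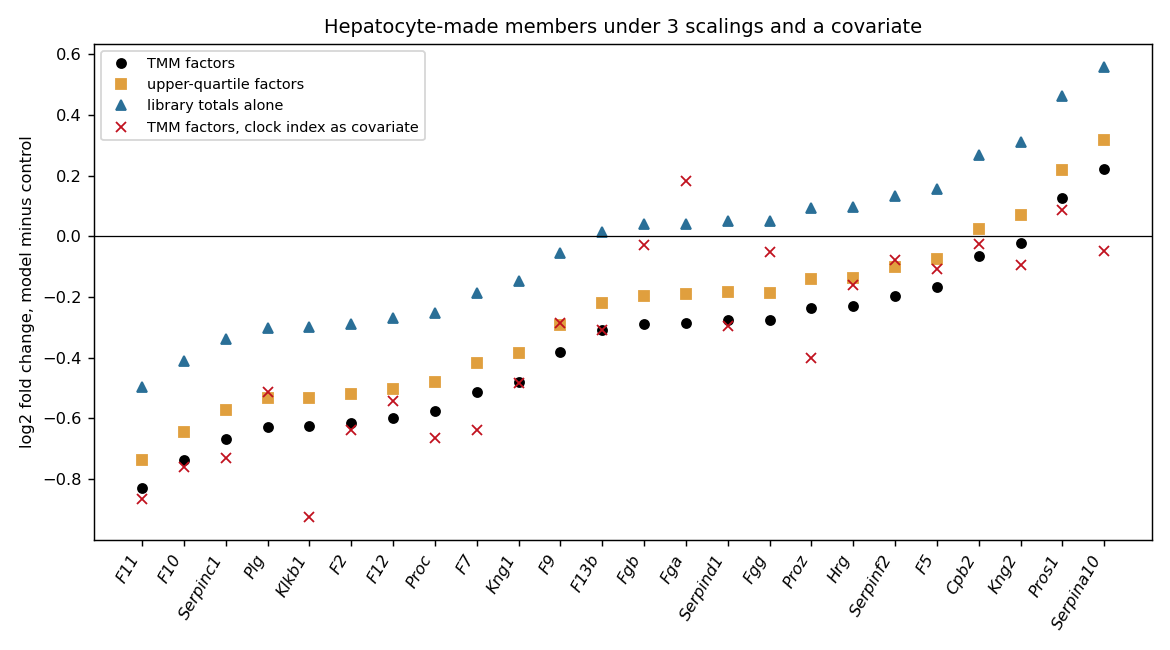
Log2 fold change, model minus control, of the 24 hepatocyte-made members under TMM factors (circles), upper-quartile factors (squares), library totals alone (triangles) and TMM factors with the clock index as a covariate (crosses). The scalings move all points together, from a median of -0.30 with TMM factors to 0.03 with library totals, while the covariate moves single genes, with Fga going from -0.28 to 0.18.

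In fibrinolysis the plasminogen activators were higher and plasminogen itself was lower. Plau, which encodes urokinase, a protease that turns plasminogen into plasmin, stood at 0.470, 0.397, 0.289, 0.532, 0.377 and 0.372 CPM in controls 1 to 6. In model mice it ran from 0.972 in mouse 10 through a median of 5.09 to 9.27 in mouse 16, above every control in 18 of 18. Its log2 fold change was 3.60 (SE 0.37, adjusted p = 1.11e-08), or 12.2-fold. Plaur, the cell-surface receptor that holds urokinase, was at 0.147, 0.348, 0.161, 0.390, 0.189 and 0.236 CPM in controls. The model mice ran from 0.833 to 4.00 with a median of 2.58, again with no overlap, and the log2 fold change was 3.39 (SE 0.32, adjusted p = 1.68e-09). Plat, the tissue-type activator, rose from 0.291 ± 0.127 to 2.28 ± 1.26 CPM, by 2.94 on the log2 scale (SE 0.46, adjusted p = 4.75e-06). Only model mouse 10, at 0.444 CPM, fell within the control range of Plat.

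Plasminogen itself was lower. Plg stood at 2326, 3106, 2449, 2666, 3167 and 2535 CPM in controls and between 1279 and 2162 CPM in model mice, with a median of 1736. The groups did not overlap, and the model mean was 64.8% of the control mean (log2 fold change -0.63, SE 0.10, adjusted p = 4.11e-06). Serpinf2, the antiplasmin gene, and Hrg, whose product histidine-rich glycoprotein binds plasminogen, passed narrowly at -0.20 (adjusted p = 0.0474) and -0.23 (adjusted p = 0.0318). Both calls were lost with upper-quartile factors (adjusted p = 0.291 and 0.184) and with the clock covariate (adjusted p = 0.708 and 0.456). Without control 2 Serpinf2 was at -0.12 (adjusted p = 0.219), and single omissions of 11 other libraries also ended its call. The Hrg call was lost without control 2 (adjusted p = 0.114) or control 5 (adjusted p = 0.0713). Cpb2, the carboxypeptidase that slows fibrin breakdown, did not pass at -0.07 (SE 0.09, adjusted p = 0.526), with 423 ± 73.9 CPM in controls and 404 ± 42.1 in model mice.

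Among 13 further genes of plasmin control, 10 were tested, and 4 were higher and 4 lower, with a median of -0.01. Of all genes 31.2% were higher and 28.8% lower, and whether this list differed from them was not tested. The plasminogen receptor genes Anxa2, S100a10 and Plgrkt were higher by log2 fold changes of 4.55, 1.15 and 1.52, each in 18 of 18 mice. Anxa2 went from 4.66 ± 1.01 to 109 ± 42.2 CPM. Vtn, which encodes the plasma adhesion protein vitronectin, fell from 3162 ± 439 to 1811 ± 195 CPM (log2 fold change -0.80, adjusted p = 4.61e-09). S100a10, Plgrkt and Vtn were chosen for naming after their values were seen.

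**Figure D3:**
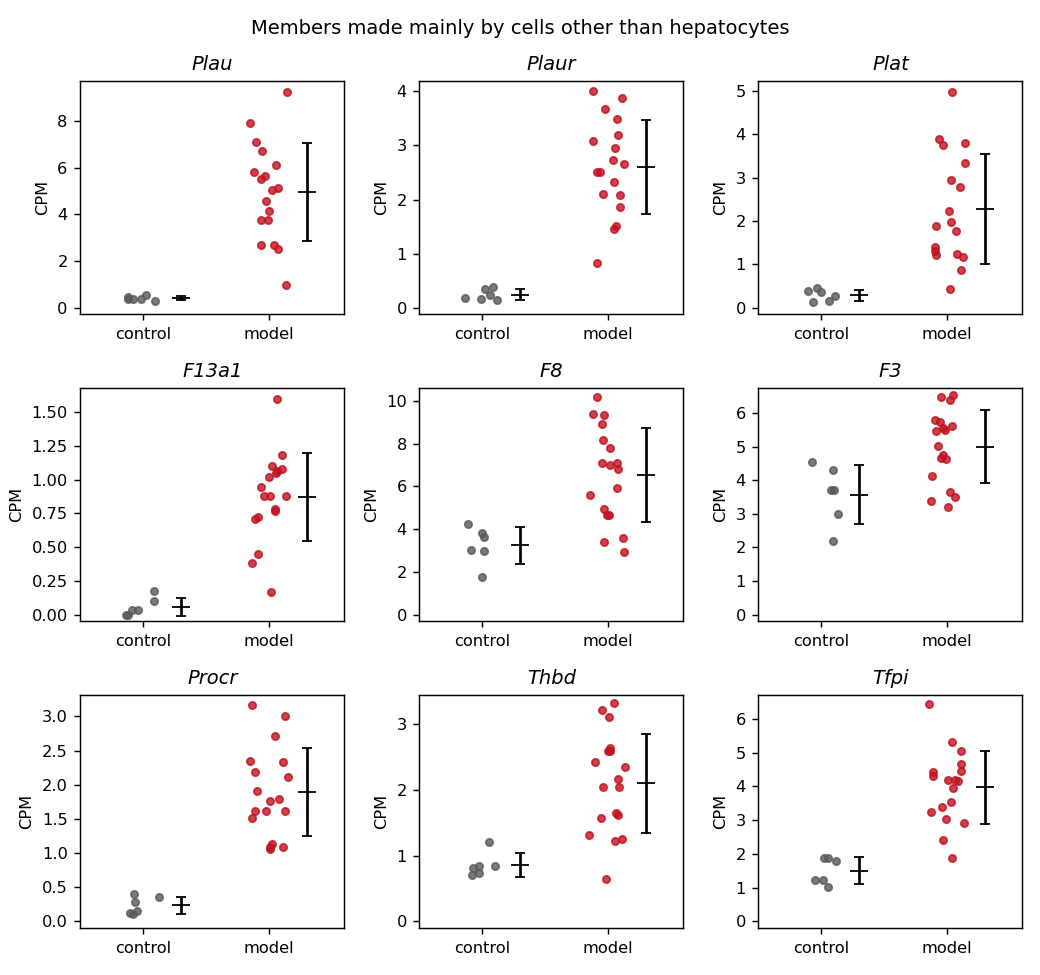
CPM, scaled with TMM factors, of the 9 members made mainly by cells other than hepatocytes, with 1 point per mouse and bars for the mean and SD of 6 control and 18 model mice. Plau, Plaur and Procr separate the groups completely, while F3 and F8 overlap them.

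Genes of the coagulation chain that other cells make rose as well. F13a1, the catalytic subunit of factor XIII and a marker of macrophages and platelets, had 6, 4, 0, 1, 0 and 1 counts in controls 1 to 6. The 2 libraries at 0 allow up to 0.08 and 0.078 CPM by library totals. Model mice ran from 0.167 CPM in mouse 10 through a median of 0.878 to 1.6 in mouse 8, and 17 of 18 lay above every control. The log2 fold change was 3.77 (SE 0.48, adjusted p = 1.89e-07), on low counts. F13b, the carrier subunit made by hepatocytes, went the other way, from 257 ± 31.6 to 208 ± 42.3 CPM (log2 fold change -0.31, adjusted p = 0.0395). That call was lost with upper-quartile factors (-0.22, adjusted p = 0.141), with no filter (-0.30, adjusted p = 0.107), with the clock covariate (-0.31 with an SE of 0.22, adjusted p = 0.284) and without control 1, 2, 3, 4 or 6.

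F8, a cofactor made by sinusoidal endothelium, stood at 3.61, 3.03, 3.83, 4.26, 1.76 and 2.97 CPM in controls and between 2.95 and 10.2 CPM in model mice, with a median of 6.91. It was above every control in 15 of 18 mice, with a log2 fold change of 1.01 with an SE of 0.24 (adjusted p = 0.000651). Lman1, whose product carries factors V and VIII out of the endoplasmic reticulum, fell from 216 ± 23.3 to 149 ± 11.1 CPM in all 18 mice (log2 fold change -0.54, adjusted p = 3.07e-08). F5, the hepatocyte cofactor carried by the same receptor, did not pass (-0.17, SE 0.11, adjusted p = 0.176). Tissue factor, F3, changed least among the higher members, from 3.58 ± 0.868 to 5.00 ± 1.08 CPM (log2 fold change 0.48, adjusted p = 0.01). Control 6 was the highest control for F3, at 4.56 CPM, and with the clock covariate the value was 0.09 (adjusted p = 0.825).

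Hepatocyte-made coagulation factors were lower to unequal degrees. F10 fell most among the procoagulant genes: controls stood at 550, 672, 606, 530, 660 and 625 CPM and model mice between 286 and 420 CPM with a median of 372. The groups did not overlap, and the log2 fold change was -0.74 (SE 0.07, adjusted p = 1.63e-09). F2, the prothrombin gene, fell from 2290 ± 247 to 1495 ± 142 CPM without overlap (-0.61, adjusted p = 6.07e-08). F7, which tissue factor binds, was at 78.7, 104, 101, 74.3, 98.9 and 111 CPM in controls and between 46.1 and 81.8 CPM in model mice, and 12 of 18 lay below every control (-0.51, SE 0.11, adjusted p = 0.00018). With library totals F7 was at -0.19 and not called (adjusted p = 0.0609). F9, the gene of haemophilia B, changed by -0.38 on the log2 scale (adjusted p = 0.00169). The F9 call was lost with library totals (-0.06, adjusted p = 0.633) and with the clock covariate (-0.28, adjusted p = 0.198).

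Fibrinogen transcripts were among the most abundant of the list per base. Divided by the deposited gene length and scaled to the same sum in each library, Fga, Fgb and Fgg held the top 3 ranks in both groups, at 2745 ± 542, 2628 ± 336 and 2534 ± 314 in controls. With the longest annotated transcript in place of the deposited length, a choice made after seeing the data, Kng1 ranked above Fgb in controls (2815 ± 355 against 2628 ± 336) and below it in model mice (2631 ± 107 against 2806 ± 345). By deposited length the 3 did not differ beyond their spread, and together they made up 42.8 ± 3.49% of the members' summed level in controls and 45.1 ± 2.30% in model mice. The 9 members from other cells made up 0.0283 ± 0.00214% and 0.115 ± 0.0284%. In TMM-scaled CPM, Fga stood at 4345, 5021, 3578, 4618, 5030 and 3015 in controls and between 2704 and 4862 in model mice, with a median of 3387. Fgb was at 5299, 6205, 4759, 5590, 4798 and 4415 in controls and between 3499 and 5129 in model mice, with a median of 4165. For Fgg the controls were at 2920, 3310, 2570, 2847, 2321 and 2501 and the model mice between 1868 and 2875, with a median of 2297. The groups overlapped for all 3 genes, and control 6 was the lowest control for Fga and Fgb.

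The log2 fold changes of Fga, Fgb and Fgg were -0.28 (SE 0.11, adjusted p = 0.0264), -0.29 (SE 0.08, adjusted p = 0.00349) and -0.28 (SE 0.08, adjusted p = 0.00543). With the clock covariate they were 0.18, -0.03 and -0.05 and none passed (adjusted p = 0.41, 0.883 and 0.798). With library totals they were 0.04, 0.04 and 0.05 (adjusted p = 0.744, 0.68 and 0.596). With upper-quartile factors the Fga and Fgg calls were lost (adjusted p = 0.127 and 0.0619). The Fga call was also lost without control 2, 4 or 5 (adjusted p = 0.0913, 0.0611 and 0.081). Ratios within a mouse are free of library scaling. The log2 ratio of Fgb to Fgg was 0.92 ± 0.08 in controls and 0.91 ± 0.07 in model mice, a difference of -0.01 (exact permutation p = 0.753, two-sided, over all 134596 ways to divide the mice, adjusted 0.991). For Fga to Fgb the difference was 0.01 (exact permutation adjusted p = 0.991).

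**Figure D4:**
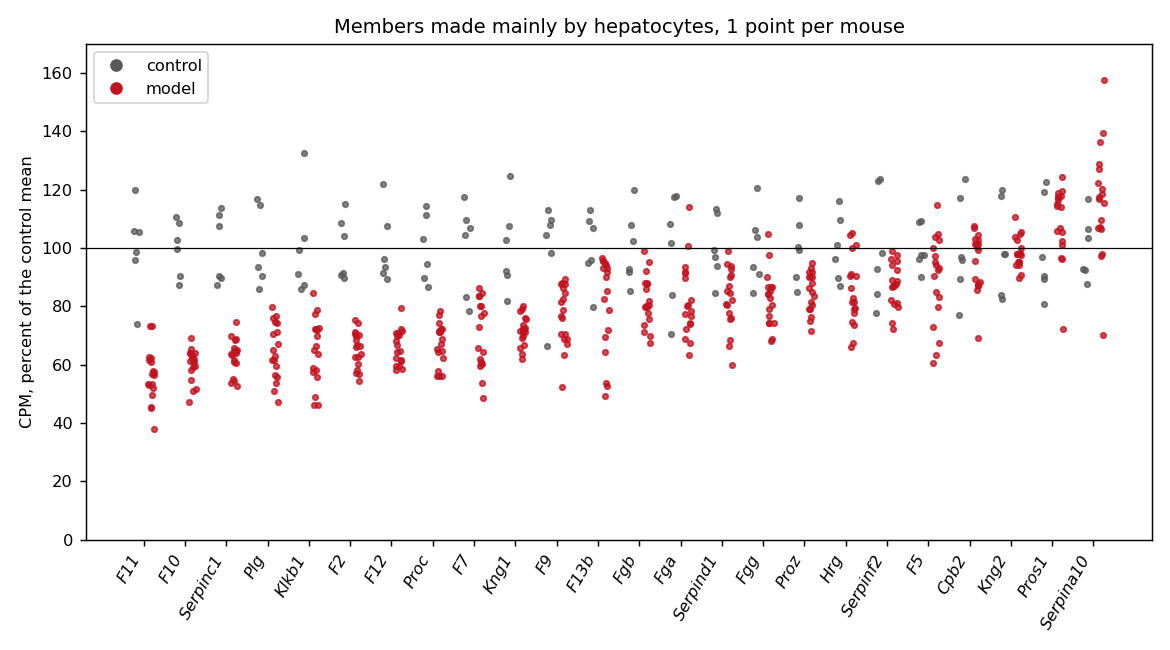
CPM, scaled with TMM factors, of the 24 hepatocyte-made members as a percent of each gene's control mean. Each mouse is 1 point (grey for 6 controls, red for 18 model mice). Genes are ordered by the model mean on that scale. F11, at 56.3% of the control mean, stands at one end and Serpina10, at 117%, at the other.

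Genes of the contact system fell together with the exception of Kng2. F11, whose product factor XI is activated by factor XII and by thrombin, stood at 58.1, 54.3, 66.0, 52.9, 40.7 and 58.2 CPM in controls and between 20.9 and 40.3 CPM in model mice, with a median of 31.2. Its groups did not overlap and its log2 fold change of -0.83 (SE 0.10, adjusted p = 8.65e-08) was the lowest of the list. Klkb1, the paralogous neighbour of F11 on chromosome 8, was at 193, 232, 223, 196, 204 and 297 CPM in controls and between 104 and 190 CPM in model mice (-0.63, SE 0.11, adjusted p = 2.34e-05). Gm45753, on the same strand, shares 43.2% of the exon bases of Klkb1. It took 22 counts against 157123 over all libraries, so the Klkb1 count depends on how such reads were assigned. F12, which starts the contact pathway, fell from 645 ± 81.1 to 426 ± 38.0 CPM without overlap (-0.60, adjusted p = 5.39e-08).

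The kininogens, from which kallikrein cuts bradykinin, behaved differently. Kng1 was at 3029, 4108, 2994, 2700, 3384 and 3541 CPM in controls and between 2042 and 2641 CPM in model mice, with a median of 2366 and no overlap (-0.48, SE 0.07, adjusted p = 2.41e-06). Kng2, its neighbour on chromosome 16, was at 402, 485, 339, 344, 402 and 493 CPM in controls and between 369 and 455 CPM in model mice, inside the control range. It did not pass (-0.02, SE 0.07, adjusted p = 0.788). The log2 ratio of Kng1 to Kng2 fell from 3.00 ± 0.113 to 2.54 ± 0.0831, by 0.46, with 18 of 18 model mice below every control. The exact permutation p was 7.43e-06, the smallest the design allows, and 4.46e-05 after adjustment over 6 ratios. The transcripts share 18.0% of the distinct 50-base words of Kng1 and 18.2% of those of Kng2, so part of their reads cannot be assigned to one of them, and single values are uncertain.

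Anticoagulant genes split by source. Procr, the endothelial receptor of protein C, stood at 0.352, 0.397, 0.129, 0.284, 0.157 and 0.101 CPM in controls and between 1.06 and 3.16 CPM in model mice, with a median of 1.77 and no overlap (2.95, SE 0.31, adjusted p = 9.54e-09). Thbd, thrombomodulin, which turns thrombin into an activator of protein C, rose from 0.859 ± 0.180 to 2.10 ± 0.754 CPM (1.29, SE 0.26, adjusted p = 0.00012). Model mouse 9 was below every control for Thbd, at 0.651 CPM, and the other 17 above every control. Tfpi was at 1.79, 1.89, 1.22, 1.88, 1.01 and 1.22 CPM in controls and between 1.89 and 6.44 CPM in model mice, with a median of 4.16, and 17 of 18 lay above every control (1.40, SE 0.20, adjusted p = 1.6e-06).

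The protein C zymogen went the other way. Proc fell from 502 ± 57.6 to 336 ± 36.0 CPM without overlap (-0.58, SE 0.08, adjusted p = 3.55e-07), while Pros1, its cofactor protein S, did not pass (0.13, SE 0.09, adjusted p = 0.233). Pros1 passed as higher with upper-quartile factors (0.22, adjusted p = 0.0417) and with library totals (0.46, adjusted p = 0.000219). Serpinc1, antithrombin, the main inhibitor of thrombin and factor Xa, stood at 2327, 2861, 2306, 2246, 2929 and 2767 CPM in controls and between 1356 and 1923 CPM in model mice, with a median of 1641 and no overlap (-0.67, SE 0.07, adjusted p = 2.48e-08). On the opposite strand, Zbtb37 covers 34.4% of its exon bases and took 11194 counts against 1757915 over all libraries. By deposited gene length Serpind1, heparin cofactor II, ranked above Serpinc1 in model mice, at 610 ± 78.5 against 475 ± 23.2, and level with it in controls, at 568 ± 58.7 against 581 ± 64.4. The deposited lengths were 8546 bases for Serpinc1 and 2191 for Serpind1. By the longest transcript, 4970 and 2191 bases, the order turned, with Serpinc1 at 1000 ± 111 in controls and 817 ± 39.8 in model mice. In CPM Serpind1 was at 625, 729, 545, 604, 639 and 721 in controls and between 386 and 638 in model mice (-0.28, SE 0.09, adjusted p = 0.00775), a call lost with upper-quartile factors (-0.18, adjusted p = 0.061) and with the clock covariate (-0.30 with an SE of 0.15, adjusted p = 0.122).

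Protein Z and its partner inhibitor together block factor Xa. Only the gene of the first was called, and the difference between them was not tested. Proz changed by -0.24 on the log2 scale (adjusted p = 0.00378), lost with upper-quartile factors (adjusted p = 0.0606). Serpina10, the protein Z-dependent inhibitor, was at 187 ± 20.3 CPM in controls and 217 ± 35.4 in model mice and did not pass (0.22, SE 0.11, adjusted p = 0.0717). It passed without model mouse 10, its lowest mouse at 131 CPM (0.25, adjusted p = 0.015), and without control 6 (0.26, adjusted p = 0.047). It also passed with upper-quartile factors (0.32, adjusted p = 0.0126), with library totals (0.56, adjusted p = 0.000277) and with a filter of 1 CPM in 6 libraries (0.25, adjusted p = 0.039), and with the clock covariate it was at -0.05 (adjusted p = 0.858). F7, F10 and Proz lie next to each other on chromosome 8, at 13076034 to 13085809, 13087308 to 13106676 and 13110914 to 13126026 in GRCm39, and changed by unequal amounts. The log2 ratio of F7 to F10 was -2.69 ± 0.133 in controls and -2.47 ± 0.182 in model mice, 0.22 higher (exact permutation p = 0.0123, adjusted 0.0369). That of F11 to Klkb1 differed by -0.20 (exact permutation p = 0.205, adjusted 0.409).

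The vitamin K cycle, which carboxylates prothrombin, factors VII, IX and X and proteins C, S and Z, was covered with secretion genes by a list of 7. Of these 3 were lower and 0 higher, with a median of -0.16. The lower share of 42.9% was above the 28.8% of all genes called lower. It did not exceed the share of all genes called in either direction. Whether the list of 7 differed from all genes was not tested. Vkorc1, the reductase that warfarin inhibits, fell from 22.5 ± 1.36 to 14.2 ± 3.53 CPM, below every control in 18 of 18 mice (-0.67, SE 0.14, adjusted p = 0.000244). Ggcx, the carboxylase, did not pass (-0.16, adjusted p = 0.0642). In the list of thrombin receptors and adhesion genes, 9 of 11 were tested, 5 were higher and 2 lower, with a median of 0.74. Of all genes 31.2% were higher and 28.8% lower, and whether this list differed from them was not tested. Thbs1, thrombospondin-1, changed by 2.83 on the log2 scale (adjusted p = 9.96e-09). Fgl2, a membrane protein that can cleave prothrombin, was higher by 2.23 (adjusted p = 4.1e-08). Vwf, the carrier of factor VIII in plasma, did not pass (-0.02, SE 0.27, adjusted p = 0.957). Of 9 regulators of hepatocyte coagulation genes, 4 were lower and 1 higher, with a median of -0.21. The share called in either direction, 55.6%, did not exceed that of all genes. Lower calls alone, 4 of 9, were more frequent than the 28.8% of all genes, a difference that was not tested. Il6ra, the interleukin-6 receptor gene, fell from 80.3 ± 23.2 to 29.4 ± 5.63 CPM (-1.45, SE 0.13, adjusted p = 1.34e-09). Cebpb, a C/EBP factor, changed by -1.03 on the log2 scale (adjusted p = 4.71e-06). Its controls ran from 19.8 to 62.6 CPM, and 8 of 18 model mice lay below every control.

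Markers of the cells that make these proteins moved between the groups, and their part in the values above was not tested. The shares over all genes were 31.2% higher and 28.8% lower, and no marker list was tested against them. All 8 macrophage markers were higher, with a median of 3.54, and their summed level ran from 26.7 to 62.4 CPM in controls and from 147 to 771 in model mice. Lgals3 and Itgam led them, at 4.92 and 4.28. Itgam rested on low counts, at 0.0811 ± 0.0510 CPM in controls and 1.64 ± 0.794 in model mice. Among 8 markers of sinusoidal endothelium 7 were higher, with a median of 1.23, led by Cdh5 (1.61) and Stab2 (1.46), and their sum ran from 45.2 to 88.7 CPM in controls and 67.4 to 236 in model mice. All 8 stellate and fibroblast markers were higher, with a median of 1.43, led by Col1a1 (3.85) and Col3a1 (3.54). All 5 neutrophil markers were higher, with Csf3r and Mmp8 at 2.68 each, and 1 of 5 cholangiocyte markers was higher, Spp1 at 1.96, which did not pass with the clock covariate (adjusted p = 0.217). Of 7 hepatocyte markers matched, 6 were lower, with a median of -0.85, led by Cps1 (-1.13) and Serpina1a (-1.08), below the -0.30 of the hepatocyte-made members. Alb, the albumin gene and a defining marker of liver, fell from 113670 ± 23970 to 61815 ± 12330 CPM, below every control in 17 of 18 mice (-0.88, adjusted p = 1.38e-06). Of 10 platelet markers 4 could be tested: Pf4, which macrophages can also express, was higher by 2.22 (1.71 and not called with the clock covariate, adjusted p = 0.0761), Gp1ba lower by a log2 fold change of -1.02, and the list's sum ran from 2.83 to 4.59 CPM in controls and 3.38 to 5.59 in model mice. Gp1bb and Hbb-bs were listed at 0 in every library. Mmp8 and Gp1ba rested on low counts, and neither passed the filter of 1 CPM in 6 libraries. Mmp8 was at 0.0357 ± 0.0577 CPM in controls and 0.273 ± 0.139 in model mice. Gp1ba was at 0.675 ± 0.300 and 0.327 ± 0.130. Of 5 red cell markers 3 were tested and all were lower, led by Hbb-bt (-0.88) and Hba-a1 (-0.71). Neither of these calls held with library totals (adjusted p = 0.108 and 0.249), with the clock covariate (adjusted p = 0.105 and 0.201) or with the replicate block (adjusted p = 0.0695 and 0.200), and that of Hba-a1 was also lost with upper-quartile factors (adjusted p = 0.0649) and with no filter (adjusted p = 0.102).

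Over the 18 model mice, 4 of the 9 members made by other cells were compared with a marker score. Among 10 relations computed, Plaur followed the macrophage score, the mean log2 CPM of 7 of those markers (without Lgals3), with Pearson r = 0.90 and Spearman rho = 0.89 (permutation p = 1e-05 each, the smallest possible, adjusted 5e-05 and 3.3e-05). Plau did so with r = 0.88 and rho = 0.88 (permutation p = 1e-05 each, adjusted 5e-05 and 3.3e-05). F13a1 had r = 0.72 (permutation p = 0.00056, adjusted 0.000933) and rho = 0.60 (permutation p = 0.00898, adjusted 0.0101). Without mice 10 and 15, the farthest from the median score, r was 0.86, 0.83 and 0.57 for Plaur, Plau and F13a1. Thbd followed the endothelial score with r = 0.84 (permutation p = 2e-05, adjusted 5e-05) and rho = 0.74 (permutation p = 0.00083, adjusted 0.00208), and r = 0.73 without mice 9 and 13. The genes and scores share a library and its scaling factor. In mice 2, 4, 13, 15, 16, 17 and 18, low on the first principal component, the macrophage score ran from 4.64 to 5.61. It ran from 3.40 to 4.86 in the other model mice, and the relations were not computed within either set. Spread among model mice was wider for the 9 members from other cells, with a median coefficient of variation of 34.0% against 11.4% for the hepatocyte-made ones. It was wider in controls as well, at 27.0% against 12.8%. Model mouse 10 was the lowest model mouse for 4 of the 9, F13a1, Plat, Plau and Plaur, and without it r was 0.87, 0.84 and 0.58 for Plaur, Plau and F13a1.

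**Figure D5:**
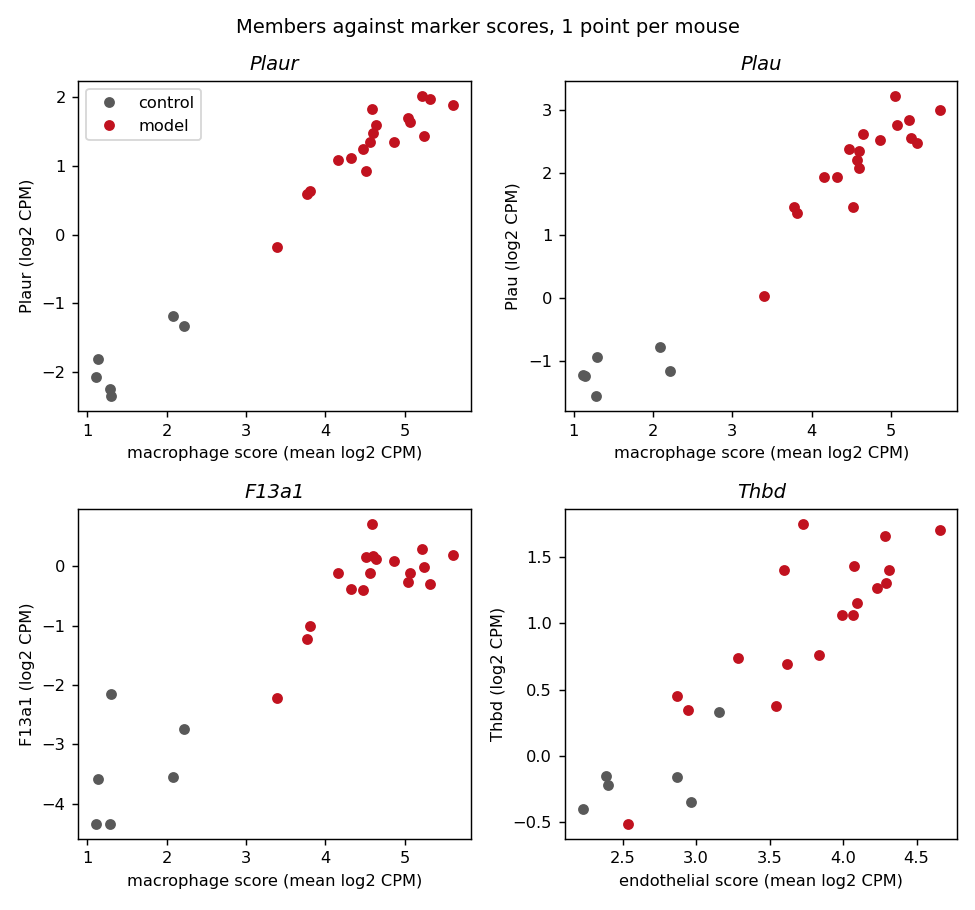
Log2 CPM of Plaur, Plau and F13a1 against the macrophage score and of Thbd against the endothelial score, with 1 point per mouse (grey, controls; red, model mice). Within the 18 model mice r was 0.90, 0.88, 0.72 and 0.84, and model mouse 10 is the red point at the lowest macrophage score.

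Neighbouring hepatocyte genes varied together to different degrees over the 18 model mice. Fgb and Fgg had r = 0.90 (permutation p = 2e-05, adjusted 5e-05) and rho = 0.92 (permutation p = 1e-05, adjusted 3.3e-05), and r = 0.85 without mice 3 and 11. Fga and Fgb had r = 0.79 (permutation p = 9e-05, adjusted 0.00018) and rho = 0.71 (permutation p = 0.00153, adjusted 0.00306), and r = 0.68 without mice 8 and 11. Fga and Fgg had r = 0.71 (permutation p = 0.00104, adjusted 0.0013) and rho = 0.63 (permutation p = 0.0064, adjusted 0.00914), and r = 0.45 without mice 8 and 11. F7 and F10 had r = 0.70 (permutation p = 0.00096, adjusted 0.0013) and rho = 0.60 (permutation p = 0.00912, adjusted 0.0101), and r = 0.44 without mice 4 and 13. Kng1 and Kng2 had r = 0.61 (permutation p = 0.00761, adjusted 0.00846) and rho = 0.64 (permutation p = 0.00506, adjusted 0.00843), and r = 0.50 without mice 4 and 13. With library totals alone the last 2 relations did not pass, at r = 0.30 and 0.29 (permutation adjusted p = 0.271 for both). F11 and Klkb1 showed no detectable relation (r = 0.08, rho = 0.12, permutation p = 0.747 and 0.623, adjusted 0.747 and 0.623).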

How the data were processed

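Liver RNA of 6 control and 18 model mice was analysed from the deposited table of raw read counts per Ensembl gene. The genome build was GRCm39 per the submitters' processing notes. Which aligner, counter, annotation and strandedness were used is not given in the sources used here. Of 78298 gene IDs, 51498 matched a symbol and took 99.6% of counts. The deposited gene lengths in bases served only for levels per length, and the longest GENCODE M21 transcript replaced them in an added alternative. Library totals ran from 31600129 to 58413267 counts, and 3 counts stand for 0.0514 to 0.0949 CPM by library totals. Counting limits cover counting error only. No pair of libraries of a group agreed within sampling noise (168 pairs, smallest chi-square per degree of freedom 19.0).

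All libraries entered one fit over all genes with edgeR 4.0.16 in R 4.3.3 (TMM factors, default filter by group, robust quasi-likelihood F test, Benjamini-Hochberg over 17456 genes, group as the only term). A gene was called at an adjusted p below 0.05. Each standard error is the size of the log2 fold change divided by sqrt(F). CPM were taken over TMM-scaled totals, and log2 CPM with a prior count of 2. Relations used two-sided permutation tests with 100000 resamples. Permutations were drawn with numpy 2.4.6 under Python 3.11.15, with figures from matplotlib 3.10.9 and tables handled in pandas 2.3.3.

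The members, lists, pairs and tests were chosen with earlier results of these data known, and ratios within a mouse were added after seeing the data. Values by mouse and full statistics went to the 2 called members with the largest change and the one with the highest level per length in each role, and to neighbouring pairs. From each list the 2 called genes with the largest change are named, and Vwf whatever its result; 1 gene that the rule names is not reported here. Every other member is named with its log2 fold change. Ggcx was named after its value was seen. Each result was recomputed with RLE factors, upper-quartile factors, library totals, DESeq2 1.42.0, limma-voom (limma 3.58.1), no filter, 1 CPM in 6 libraries, a threshold of 0.01, the replicate number as a block, the clock index as a covariate, and each library left out in turn. The listed hepatocyte marker Tf matched no symbol.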

Additional observations from a re-analysis of the deposited data

Results flagged for a closer look

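In controls, 2 of the 33 members had 1 library far from the other 5, by Dixon's test for 6 values. That test flags about 1 group in 20 by chance. F9 was 159 CPM in control 5, where the other controls lay between 235 and 270 CPM. Thbd was 1.21 CPM in control 4, where the others lay between 0.708 and 0.849 CPM. Without control 5 the F9 call was kept, and without control 4 that of Thbd was kept. The cause was not tested.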

How the results depend on the processing

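The 9 higher members were called under RLE and upper-quartile factors, library totals, DESeq2, limma-voom, both filters and the replicate block. F3 was not called at a threshold of 0.01 or with the clock covariate. Over single omissions of the 24 libraries, 9 to 10 members were higher and 15 to 19 lower, and 5198 to 5474 genes were higher and 4787 to 5175 lower. The 19 lower members became 12 with upper-quartile factors, 9 with library totals and 11 with the clock covariate. Over all genes, 5445 higher and 5035 lower calls became 9406 and 1562 with library totals and 3518 and 2895 with the covariate. With library totals the sign turned for F5 (0.16, not called), F13b (0.0128), Fga (0.0417), Fgb (0.0411), Fgg (0.0513), Kng2 (0.31, called), Proz (0.0925), Serpind1 (0.0501), Serpinf2 (0.13), Cpb2 (0.27, called) and Hrg (0.10), and with the covariate for Fga (0.18) and Serpina10 (-0.05), neither called. Uncalled Kng2 and Cpb2 were at 0.07 and 0.03 with upper-quartile factors, and Kng2 at 0.0085 with the filter of 1 CPM. The correlations of F7 with F10 and of Kng1 with Kng2 fell to 0.30 and 0.29 with library totals. No call of the other 8 relations changed with library totals or a prior count of 0.5. The cause of these changes was not tested. Leaving the 20 most abundant and the mitochondrial genes out of the scaling rescales each library by 1 factor and cannot change the order of members within it. Levels by the longest transcript changed that order, as given for Kng1 and Serpinc1.

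With the replicate number as a block, 9 members were higher and 15 lower, and 4427 genes higher and 3378 lower. Model mice numbered above 6 have no control of the same number. The group difference under the block therefore rested on mice 1 to 6 of each group. The pairing has no base in the design: deviations of same-numbered mice correlated between -0.39 and 0.113, and 1 of 6 controls correlated best with its own number among model mice 1 to 6. Members of other cells lie at 0.0575 to 3.58 CPM in controls, so counts limit their precision.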
